A study of Bombus terrestris with 33 samples.

Results

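Messenger RNA from single brains of young Bombus terrestris queens, the buff-tailed bumblebee, was sequenced to set mated queens against queens that had not mated. The groups were taken from the sample labels and held 17 of the 33 libraries of the series. The SM group is 8 queens that mated, lived on for 3 days with food, and were then snap-frozen. The FM group is 9 queens that were caged with males in the same way and treated like the SM queens but did not mate. All 17 were adults from commercial colonies fed sugar water and pollen, removed from the colony on emergence, and mating was offered at 5 days of age. Colony C2 gave 2 SM and 3 FM queens, colony C3 gave 3 SM and 3 FM queens, and colony C7 gave 3 SM and 3 FM queens. The labels give an estimated age with no unit, which ran from 11 to 20 in SM queens and from 6 to 27 in FM queens. The FM group rests on the behaviour of the queens and not on random assignment, so whatever differed between these queens beforehand and the act of mating cannot be told apart.

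A young bumblebee queen, or gyne, leaves her colony to mate, stores sperm in a spermatheca, and then hibernates before founding a nest. In honeybee queens, mating is known to be followed by changes in behaviour, pheromones and brain expression. The features of the deposited table are contigs, and 0 of the 10672 identifiers matched a reference table of 13398 genes, so no contig is given a gene name or a role here. For the same reason neither brain cell types nor other head tissues could be checked through their markers, and no sequence can be shown. Contigs are described by their read level in CPM, reads relative to the library total, scaled between libraries by the trimmed mean of M-values (TMM). Contig lengths were not used, so levels of different contigs are not compared with each other as RNA amounts.

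Libraries of the 17 queens held from 42858092 to 61560882 counted reads. No difference in a library measure between the groups passed its test. SM queens had 6878 ± 153 contigs with at least 1 read and FM queens 6954 ± 155 (SD, n = 8 and 9; two-sided exact permutation within colony, p = 0.357, adjusted p = 0.824 over 7 measures). The estimated age averaged 15.4 ± 3.20 in SM queens and 17.4 ± 6.86 in FM queens (SD; exact permutation p = 0.471, adjusted p = 0.824).

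Whether brain expression differs by mating outcome, 3 days after mating in the SM group, was the question of the first comparison. No contig was called at an adjusted p under 0.05 by the quasi-likelihood test of edgeR (0 of 5606 tested, 0%), in a fit of all 33 libraries with colony as a term. At an unadjusted p under 0.05 there were 564 contigs (10.1%), 226 higher in SM queens (4.03%) and 338 lower (6.03%). The count was 324 of 5241 in a fit of the 17 SM and FM libraries alone (137 higher, 187 lower) and 347 without colony C3. The median absolute log2 fold change of the 564 was 0.44. Differences past 2-fold made up 71 of the 564, with 36 contigs higher and 35 lower in SM queens, and none passed after adjustment. Over all 5606 contigs 101 lay past 2-fold, and 49 of the 71 averaged under 1 CPM. No contig separated the groups completely: for 0 of 5606 (0%) did the values of SM and FM queens fail to overlap. Complete separation of 8 from 9 queens is rare by chance, so this count does not by itself set the data apart from chance. A lower level in a whole brain cannot tell fewer cells of a type from less RNA per cell. By DESeq2, 1 contig passed (Contig276), with 617 at an unadjusted p under 0.05. By limma-voom none passed, with 655 at an unadjusted p under 0.05.

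Contig276 had the lowest p of all contigs. Like Contig1969, Contig2661 and Contig5702 below, it was chosen for a low p and the same direction in every colony. The separation of SM from FM queens in these contigs is therefore largely built in. Levels of Contig276 in SM queens were 1.12 and 1.28 CPM in colony C2, 1.96, 2.65 and 0.792 CPM in colony C3, and 1.18, 1.46 and 1.00 CPM in colony C7. In FM queens they were 0.649, 1.00 and 0.633 CPM in colony C2, 0.518, 0.717 and 0.933 CPM in colony C3, and 0.417, 0.763 and 0.719 CPM in colony C7. Of the 8 SM queens, 7 lay above every FM queen, SM replicate 26 only just, and SM replicate 22 of colony C3 was the exception. The means were 1.43 ± 0.602 CPM in SM and 0.705 ± 0.183 CPM in FM queens (SD). The log2 fold change was 1.01 ± 0.20, with a 95% interval from 0.60 to 1.42 (SE; edgeR adjusted p = 0.133). These levels stand for 40 to 123 reads per SM library and 24 to 52 reads per FM library. The contig passed by DESeq2 (adjusted p = 0.00600) and, in edgeR, without SM replicate 22 (adjusted p = 0.0151) or FM replicate 15 (adjusted p = 0.0486). It did not pass under the other 28 alternatives, where the edgeR and limma adjusted p ran up to 0.818, with 0.722 in the fit of the 17 libraries alone and 0.158 by limma-voom.

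Contig1969 was the second higher contig. SM queens had 123 and 104 CPM in colony C2, 160, 164 and 130 CPM in colony C3, and 166, 76.5 and 167 CPM in colony C7. FM queens had 86.4, 112 and 98.4 CPM in colony C2, 62.6, 94.6 and 73.6 CPM in colony C3, and 72.3, 64.5 and 126 CPM in colony C7. Above the highest FM queen, FM replicate 15, lay 5 of the 8 SM queens, and SM replicate 25 lay below 5 of the 9 FM queens. The log2 fold change was 0.64 ± 0.15 (SE; edgeR adjusted p = 0.229), and it passed without FM replicate 15 (0.75, edgeR adjusted p = 0.0486) and without SM replicate 25 (0.73, edgeR adjusted p = 0.0339). It did not pass under the other 29 alternatives, where the edgeR, DESeq2 and limma adjusted p ran from 0.0577 to 0.923, with a log2 fold change of 0.45 without colony C3 (edgeR adjusted p = 0.784). The difference was smallest in colony C2, with a mean log2 difference of 0.20, against 0.99 in colony C3 and 0.62 in colony C7.

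Among the contigs with lower values in SM queens, Contig2661 had the lowest p. It had 0.416 and 0.522 CPM in SM queens of colony C2, 0.322, 0.732 and 0.495 CPM in those of colony C3, and 0.385, 0.397 and 0.251 CPM in those of colony C7. In FM queens it had 0.946, 0.539 and 0.745 CPM in colony C2, 0.560, 0.855 and 1.01 CPM in colony C3, and 0.799, 1.17 and 0.548 CPM in colony C7. All SM queens other than SM replicate 21 lay below every FM queen. The log2 fold change was -0.86 ± 0.20 (SE; edgeR adjusted p = 0.229), from 12 to 34 reads per SM library and 27 to 60 reads per FM library.

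Contig5702 was the second lower contig. Its SM levels were 0.814 and 0.522 CPM in colony C2, 0.725, 0.883 and 0.535 CPM in colony C3, and 0.835, 0.844 and 0.481 CPM in colony C7. Its FM levels were 1.11, 1.02 and 0.708 CPM in colony C2, 1.29, 1.18 and 1.24 CPM in colony C3, and 1.93, 1.66 and 0.856 CPM in colony C7. Of the 9 FM queens, 7 lay above every SM queen, while FM replicates 5 and 15 overlapped them. The log2 fold change was -0.79 ± 0.19 (SE; edgeR adjusted p = 0.229).

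**Figure D1:**
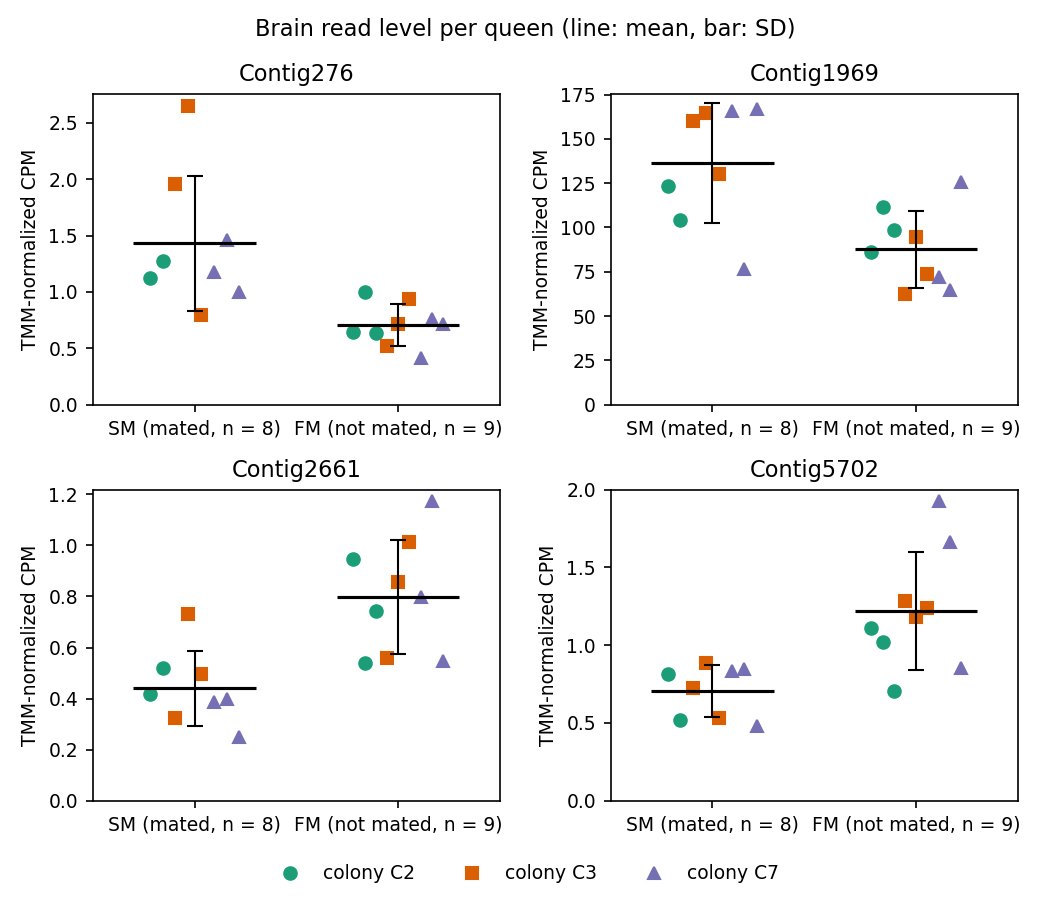
TMM-normalized CPM (y axes, from 0) of Contig276, Contig1969, Contig2661 and Contig5702 in each SM queen (left, n = 8) and FM queen (right, n = 9), with colony by colour and shape, the group mean as a line and the SD as a bar. The groups differ in mean but overlap in every panel, by SM replicate 22 for Contig276 and by SM replicate 21 for Contig2661.

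The queens sampled after hibernation were set beside these levels as a description. These FR and SR queens had also mated, and came from colonies C2, C3 and C9, with none from C7. Their estimated ages ran from 91 to 102 in the FR and from 94 to 97 in the SR group. Their means therefore differ from the SM and FM means in age and colony make-up as well as in stage. Contig1969 averaged 136 ± 33.8 CPM in SM queens, against 87.7 ± 21.8 CPM in FM queens, 91.4 ± 10.5 CPM in FR queens (undeveloped ovaries) and 83.5 ± 11.0 CPM in the SR group (developed ovaries). Contig2661 averaged 0.440 ± 0.146 CPM in SM queens, against 0.798 ± 0.224 CPM in FM, 0.738 ± 0.123 CPM in the FR and 0.741 ± 0.200 CPM in the SR group. Errors are SDs over 8 queens, and over 9 in the FM group. For both contigs the SM mean stood apart from the other group means. Contig276 differed from this order, and its FM mean was the lowest of the group means. It averaged 1.43 CPM in SM and 0.705 CPM in FM queens. The FR group had 1.15 ± 0.257 CPM and the SR group 1.58 ± 0.326 CPM. Contig5702 had its highest group mean in FM queens, at 1.22 ± 0.379 CPM, against 0.705 ± 0.166 CPM in SM queens. The FR group had 0.978 ± 0.272 CPM and the SR group 0.881 ± 0.204 CPM. The contigs were named for their SM and FM values, so no test was made of these orders.

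The number of calls also rested on FM replicate 15. Without it, edgeR called 13 contigs, 9 higher and 4 lower in SM queens, with adjusted p no lower than 0.0486. All 4 contigs described above were among them. With all queens the adjusted p of these 13 lay between 0.133 and 0.391 and their absolute log2 fold changes between 0.17 and 1.59. Of the 13, 12 had the same direction in colonies C2, C3 and C7, against 83.5% of the contigs with an unadjusted p under 0.05 and 30.2% of all tested contigs. The 13 were chosen on the same queens, so this direction is largely built in. FM replicate 15 had the deepest library and, at an estimated age of 10, was the second youngest FM queen. The part of depth and age in the change was not tested.

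The size of difference that these queens bound varied with the read level. The 95% interval around the SM over FM ratio reached, for the median tested contig, 1.27-fold above and below the estimate. The spread behind these intervals was pooled over all 33 libraries, the queens sampled after hibernation included. The interval lay within 1.5-fold in either direction for 3236 contigs (57.7%) and within 2-fold for 4540 (81.0%). Of the 1387 contigs at 100 CPM or more, 1236 (89.1%) were bounded within 1.5-fold, and 1331 (96.0%) within 2-fold. The 1.5-fold bound held for 978 of 1175 contigs (83.2%) at 10 to 100 CPM and for 822 of 1455 (56.5%) at 1 to 10 CPM. Of the 1589 contigs under 1 CPM only 200 (12.6%) were bounded within 1.5-fold and 857 (53.9%) within 2-fold.

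**Figure D2:**
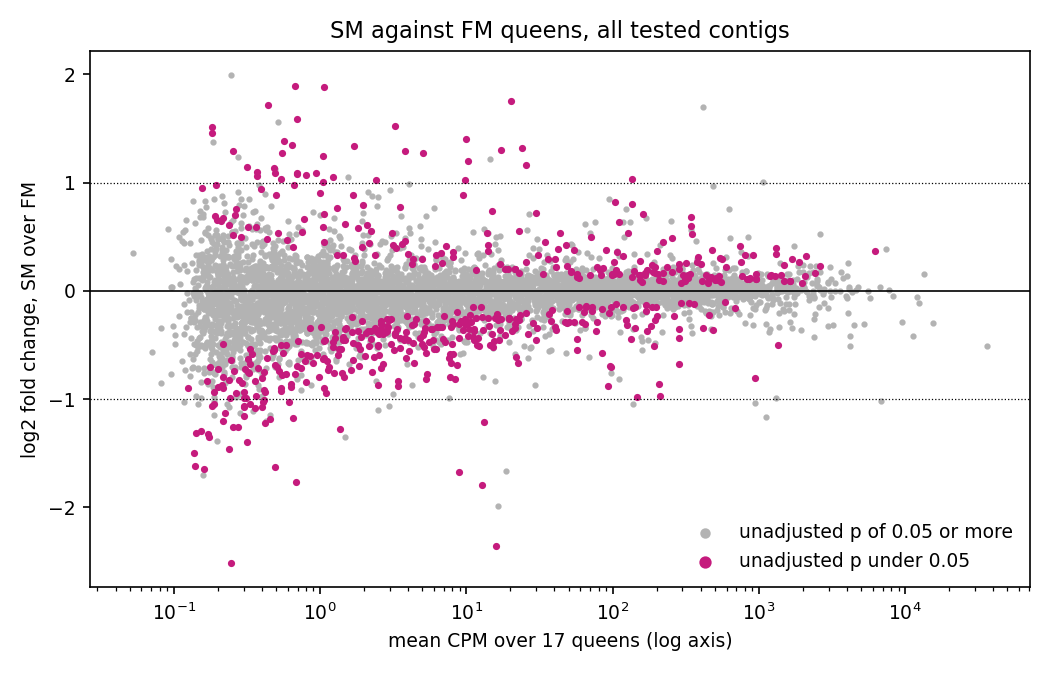
Log2 fold change of SM over FM queens (y axis) against mean CPM over the 17 queens (x axis, log scale) for the 5606 tested contigs, each a point, coloured where the unadjusted p was under 0.05. Dotted lines mark 2-fold differences; the 564 coloured contigs lie mostly above 0 at the right and below 0 at the left.

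The direction of the small differences followed the read level. Among contigs at 100 CPM or more, 94 had an unadjusted p under 0.05 with higher and 34 with lower values in SM queens. At 10 to 100 CPM the counts were 44 higher and 81 lower, at 1 to 10 CPM 46 higher and 130 lower, and under 1 CPM 42 higher and 93 lower. The median log2 fold change over all contigs of a class was 0.02 at 100 CPM or more and -0.11 under 1 CPM. Contigs at 100 CPM or more had more higher than lower values under all 31 alternatives tried, including every scaling. These alternatives share most of their libraries, so they are not separate tests. The counts themselves moved: they were 89 higher and 70 lower without FM replicate 10, 93 and 65 without FM replicate 4, 92 and 54 without SM replicate 19, 135 and 51 without FM replicate 15, 63 and 22 without FM replicate 6, 62 and 28 without FM replicate 14, and 66 and 22 without SM replicate 22. They were 47 higher and 18 lower in the fit of the 17 libraries alone, 35 and 22 without colony C3, and 8 and 5 in the test against 1.2-fold. The classes of 1 to 10 and 10 to 100 CPM had more lower than higher under all 31, and the class under 1 CPM under 30, the exception being without colony C3 (40 higher, 39 lower). None of these contigs passed after adjustment, contigs of 1 library share its composition, and the split was looked for after the data were seen.

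**Figure D3:**
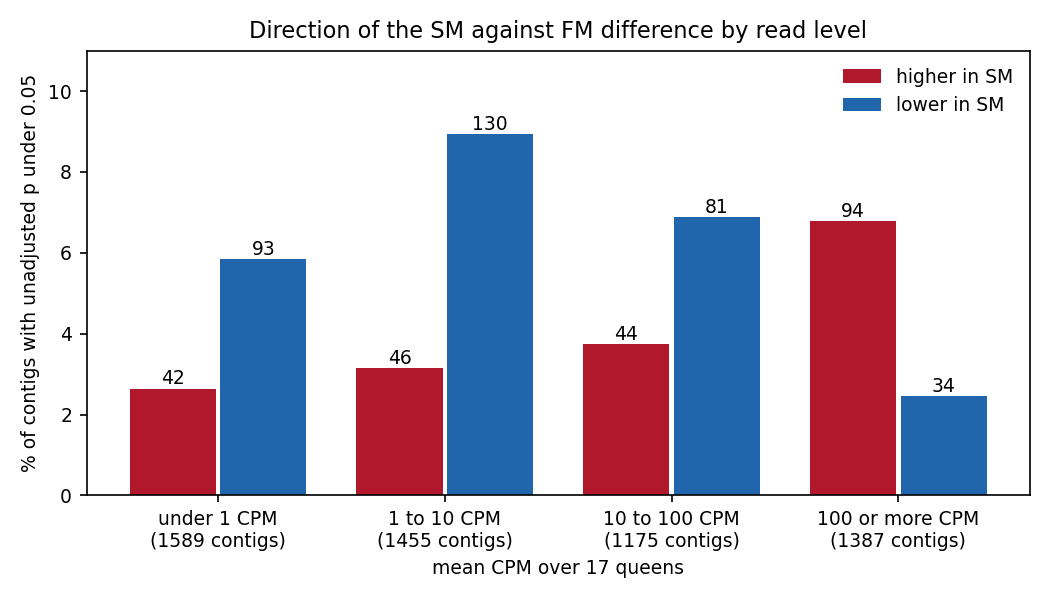
Percentage of contigs with an unadjusted p under 0.05 (y axis) in 4 classes of mean CPM over the 17 queens (x axis), higher in SM queens on the left of each pair and lower on the right, with the number of contigs above each bar. Higher values outnumber lower ones at 100 CPM or more (94 and 34), and lower ones outnumber higher ones in the other classes.

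Some of the contigs with the most reads varied widely between queens, and no difference by mating outcome passed the test. The contig with the most reads took 3.06 ± 3.81% of the reads in SM queens, with a range of 0.0728 to 11.3%, and 3.51 ± 3.65% in FM queens, with a range of 0.116 to 11.9% (SD; exact permutation within colony, p = 0.802, adjusted p = 0.905). The highest values belonged to SM replicate 25 of colony C7 and FM replicate 2 of colony C2. Its log2 fold change of -0.51 had a 95% interval from -2.94 to 1.91, so differences of several fold in either direction were not bounded. The contig ranked ninth was tightly held, at 0.768 ± 0.100% in SM and 0.753 ± 0.0620% in FM queens, with an interval of the log2 fold change from -0.15 to 0.16. Of the 10 contigs with the most reads, none had an unadjusted p under 0.05, and the lowest edgeR adjusted p was 0.642. Together they took 12.5 ± 3.45% of reads in SM queens and 13.3 ± 3.83% in FM queens (exact permutation p = 0.673, adjusted p = 0.905).

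At the other end, a few rarely read contigs were found in queens of 1 outcome. Of the 10672 contigs, 13 had reads in at least 3 SM queens and in no FM queen, and 49 had reads in at least 3 FM queens and in no SM queen. All were sparse, with at most 4 reads in a library among the 13 and at most 31 among the 49, and none had enough reads to be tested. No contig of either set was read in more than 5 SM or 6 FM queens. FM replicate 6 held reads of 28 of the 49, the most of any queen, and the other FM queens held 11 to 23. The FM group has 1 queen more, and its libraries averaged 50460646 counted reads against 48101335 in the SM group. The sets are therefore not drawn with equal chance, and the part of queen number and depth was not tested.

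Colony made the next question, since each colony holds its own SM and FM queens and no library serves in more than 1 colony. The SM minus FM difference in mean log2 CPM had a Pearson r across contigs of 0.236 (Spearman 0.216) between colonies C3 and C7, and 59.1% of contigs had the same sign there. Between colonies C2 and C3 r was 0.0932 (Spearman 0.0374, 50.6% of the same sign), and between C2 and C7 0.0154 (Spearman 0.0418, 50.7%). These are descriptions over 5606 contigs, which are not independent, share libraries within a colony and include many contigs near 0. The difference had the same sign in all 3 colonies for 1693 contigs (30.2%). That share was 83.5% among the contigs with an unadjusted p under 0.05 and 24.2% among the rest, as the same queens gave both.

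The test of whether the SM minus FM difference itself differed between colonies called 0 of 5241 contigs in the 17 libraries (edgeR, 0%), with 93 at an unadjusted p under 0.05 (1.77%). DESeq2 called 0 as well, with 161 at an unadjusted p under 0.05. A fit of all 33 libraries also called 0, with 239 of 5606 contigs at an unadjusted p under 0.05. Without FM replicate 4 that count was 249 of 5193 in edgeR, again with 0 called. With 2 or 3 queens of each outcome in a colony, 0 calls do not bound how far the colonies differ. The contig with the lowest p in the edgeR test of the 17 libraries was Contig5913. In colony C7 it had 0.150, 0.0744 and 0.0418 CPM in SM queens, from 7, 3 and 2 reads, against 0.469, 0.391 and 0.565 CPM in FM queens, from 20 to 33 reads. In colony C3 it had 0.698, 0.689 and 1.15 CPM in SM queens, against 0.560, 0.855 and 0.913 CPM in FM queens. In colony C2 it had 0.597 and 0.875 CPM in SM queens, against 0.730, 0.693 and 0.317 CPM in FM queens. Only in colony C7 did the groups not overlap, and the test of the difference between colonies did not pass (edgeR adjusted p = 1.00; DESeq2 adjusted p = 0.152).

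Colony and age were set beside mating outcome in fits of the same 17 libraries. Mating outcome had an unadjusted p under 0.05 for 324 of 5241 contigs (6.18%) there, with none called and a lowest edgeR adjusted p of 0.722. Colony had 462 (8.82%), with 12 called (0.229%). Estimated age, added to group and colony, had 617 (11.8%), with 14 called (0.267%), and left 268 for mating outcome, again with none called. Colony was tested on more degrees of freedom than outcome or age, so these counts are not on an equal footing. Whether the colony and age calls rest on single queens was not tested.

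No difference by outcome in whole profiles passed after adjustment. On the first principal component of the 17 queens, with 21.8% of the variance, SM queens scored -0.672 ± 17.3 and FM queens 0.598 ± 23.6 (SD; exact permutation within colony, p = 0.905, adjusted p = 0.905). On the second, with 18.4%, SM queens scored -8.55 ± 10.1 and FM queens 7.60 ± 21.6 (exact permutation p = 0.0490, adjusted p = 0.343 over 7 measures). The sign of a component is arbitrary. The SM mean of the second component was the lower one in each colony, at -14.1 against -0.542 in colony C2, -11.0 against 18.6 in colony C3 and -2.34 against 4.72 in colony C7. FM replicate 6, the oldest of the 17 by estimated age (27), scored 60.4, against 14.9 for the next FM queen. Without it the difference of the means on the recomputed component was -5.11 in place of -16.1 (exact permutation p = 0.242). That component is partly another axis, since its scores correlated with those from all 17 queens at r = 0.595 over the remaining 16 queens.

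**Figure D4:**
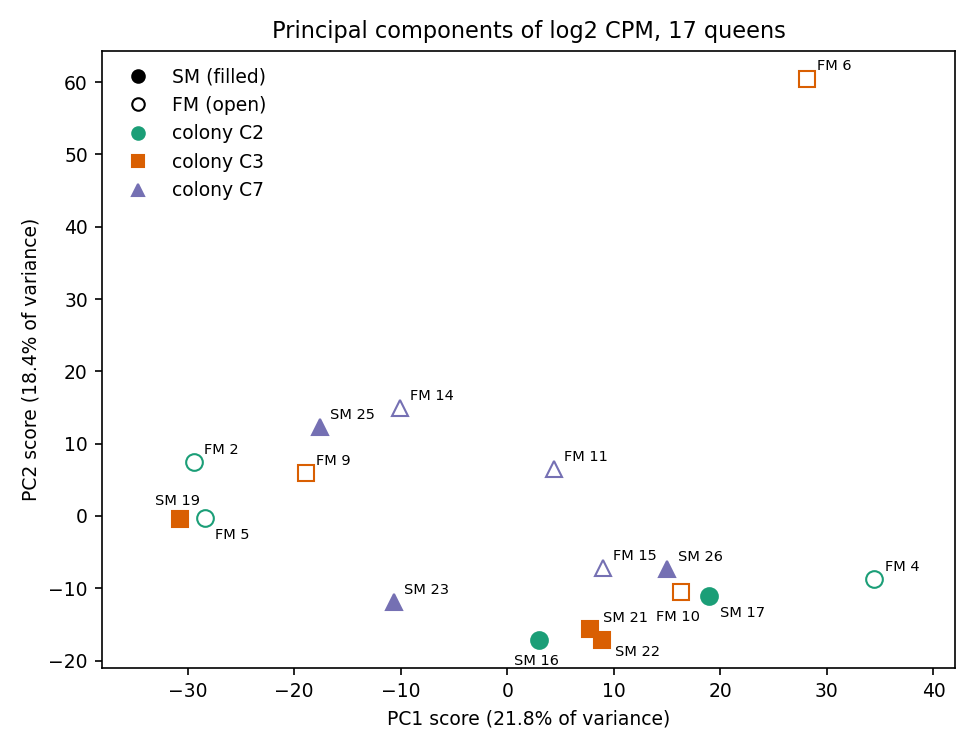
Scores of the 17 queens on the first (x axis, 21.8% of variance) and second (y axis, 18.4%) principal components of log2 CPM, SM queens filled and FM queens open, with colony by colour and shape. SM and FM queens mix along the first component, and FM replicate 6 lies alone at 60.4 on the second.

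The mean distance between queens of different outcome was not larger than that between queens of the same outcome. The distance between 2 queens of a colony was taken as the root mean square difference of log2 CPM over the tested contigs. It averaged 0.783 over the 24 pairs of an SM and an FM queen and 0.807 over the 16 pairs of the same outcome, a difference of -0.0240 (two-sided exact permutation within colony over 4000 relabellings, p = 0.493). The averages for pairs of different and of the same outcome were 0.766 and 0.824 in colony C2, 0.862 and 0.871 in colony C3, and 0.714 and 0.731 in colony C7. The closest pair of different outcome, at 0.546, lay in colony C7, and the most distant, at 1.21, in colony C3.

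Spread within each outcome was compared after the data were seen, and the test over queens did not pass. Pairs of SM queens averaged 0.743 and pairs of FM queens 0.856 (7 and 9 pairs; difference -0.113, exact permutation p = 0.417). In colony C7 the order was the other way, at 0.759 for SM and 0.703 for FM pairs. The SD of log2 CPM over queens was larger in the SM group for 29.2% of the 5606 contigs. Its median was 0.316 in SM and 0.387 in FM queens over all contigs, and 0.129 and 0.181 at 100 CPM or more. Without FM replicate 6 the share with the larger SD in SM queens was 36.4% and the difference between pairs -0.0483. The estimated age also spread more widely in FM queens, and its part in this was not tested.

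**Figure D5:**
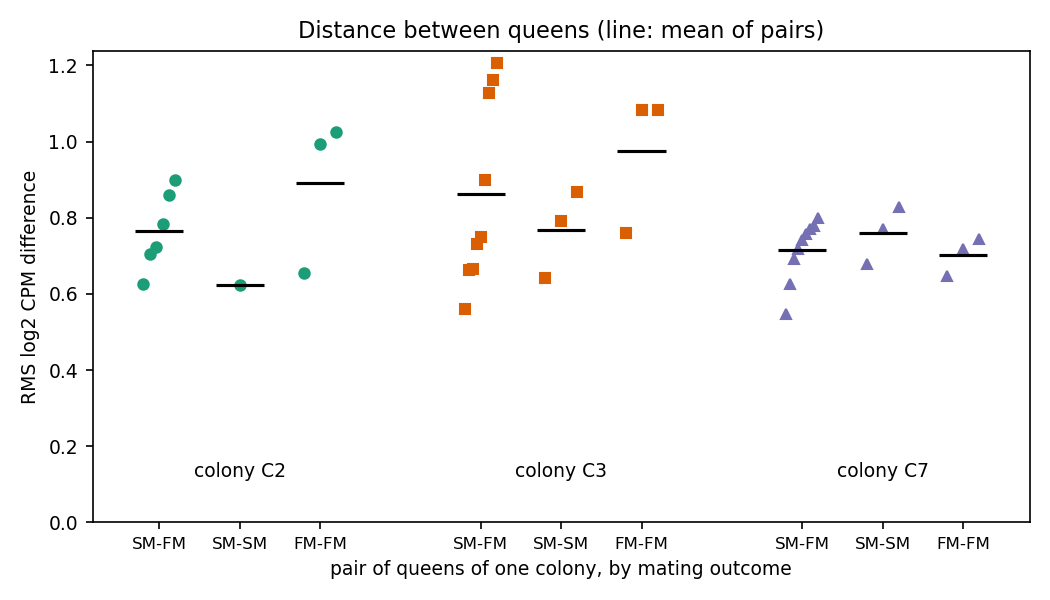
Root mean square log2 CPM difference (y axis, from 0) for each pair of queens of 1 colony, with pairs of an SM and an FM queen left of the SM pairs and the FM pairs in each of colonies C2, C3 and C7, and the mean as a line. Pairs of different outcome lie within the range of pairs of the same outcome in C2, reach below and above it in C3, and reach below it in C7.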

How the data were processed

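The authors deposited raw read counts for 10672 contigs in 33 libraries, 1 column per queen, per the file headers. Per the submitters' processing notes the tools were FastQC, TopHat, SAMtools and edgeR, with no version or role stated. For the counting program, the genome build and its annotation, no name was given in the sources used here. Deposited tables of scaled and clustering scores were not used. Groups, colonies and ages came from the labels. The p-values of the fits set a difference against the spread between queens. In the main fit this spread was pooled over all 33 libraries, so it includes the FR and SR queens and is not that of the SM and FM queens alone. No pair of the 17 libraries agreed within sampling noise (lowest chi-square per degree of freedom 137).

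Contigs were filtered with filterByExpr (minimum count 10; 5606 kept, 99.99% of reads), and TMM factors were computed. The model held group and colony, took in all 33 libraries, and was tested with edgeR 4.0.16 (robust quasi-likelihood F, R 4.3.3) with Benjamini-Hochberg adjustment at 0.05. The mating by colony, colony and age tests used the 17 SM and FM libraries (5241 contigs). SE is the log2 fold change over the square root of F; intervals are at 95%. Log2 CPM used a prior count of 2. Exact permutations moved outcome labels within colony (4000 relabellings, two-sided). The code was tested on simulated counts. Contigs were named by lowest p: for SM against FM 2 higher and 2 lower with the same direction in every colony, for mating by colony 1. Members, tests and lists were chosen with earlier results of these data known. Alternatives were DESeq2 1.42.0, limma 3.58.1 voom, other scalings and filters, other terms and samples, a 1.2-fold test, and colonies or libraries left out.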

Additional observations from a re-analysis of the deposited data

Results flagged for a closer look

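Dixon's criterion for a queen that stands apart was applied to SM and to FM queens separately, over library measures, component scores and named contigs. That made 24 sets, of which 2 passed, and chance flags about 1 in 20. FM replicate 2 held 11.9% of its reads in the contig with the most reads, against 6.00% in the next FM queen. This flag passed narrowly, with a Dixon ratio of 0.499 against a critical value of 0.493. SM replicate 25 held 11.3% in that contig, against 6.17% in the next SM queen, and was not flagged. FM replicate 6 scored 60.4 on the second principal component, against 14.9 in the next FM queen.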

How the results depend on the processing

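Of 31 alternatives to the fit of SM against FM queens, 27 called 0 contigs. DESeq2 called 1, and leaving out 1 library gave 0 to 13 calls, with 13 without FM replicate 15 and 1 each without SM replicate 22 or 25. The count at an unadjusted p under 0.05 was 324 with only the SM and FM libraries, 268 there with age, 205 against a 1.2-fold change and 347 without colony C3, and 416 to 732 with 1 library left out. Contig276, Contig1969, Contig2661 and Contig5702 kept their direction under every alternative that tested them, with edgeR, DESeq2 and limma adjusted p from 0.00600 to 0.923. Contig2661 and Contig5913 did not pass the filter of 1 CPM in 8 libraries, and the direction of Contig5913 was not followed across alternatives. The mating by colony count was 0 under all 22 alternatives. The count of contigs bounded within 1.5-fold was taken under 2 alternatives only. It was 3034 of 5241 with only the SM and FM libraries and 3257 of 5606 by limma-voom. Components were recomputed under each alternative and turned to correlate positively with the original scores. The difference on the first component was 1.48 with total counts and lay between -11.0 and 5.24 with 1 library left out. It was 8.32 over contigs of at least 10 CPM, where the first and second components correlated with the original ones at only r = 0.392 and 0.383 and are largely other axes. The difference in distance lay between -0.0422 and 0.0147 with 1 library left out, above 0 without FM replicate 4, 9 or 10. No difference on the first component or in distance passed its test under these settings, and the cause of the changes in sign was not tested. The difference on the second component lay between -19.0 and -5.11 with 1 library left out and was -3.56 over contigs of at least 10 CPM. Its exact permutation p ran from 0.0313 to 0.53 over the settings. The adjusted p ran from 0.219 to 0.779, so this difference did not pass either. Intervals were widest for contigs under 1 CPM, where the SD between queens was also largest, and the part of read depth was not separated from it.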
